A study of Arabidopsis thaliana with 48 samples.

Results

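The genes described here are encoded in the chloroplast genome of Arabidopsis thaliana and make core subunits of the photosynthetic machinery. Members were taken from the platform annotation by symbol: every probe set whose single gene symbol starts with lower-case psa, psb, pet or ndh followed by a capital, together with atpA, atpB, atpE, atpF, atpH, atpI and rbcL. This gave 43 genes, each with 1 probe set, of 22746 probe sets tested. They comprised 15 genes of photosystem II, 5 of photosystem I, 6 of the cytochrome b6f complex, 6 of the ATP synthase, 10 of the NDH complex and rbcL. All 43 lie on the plastid chromosome in the reference annotation. A further probe set, for the duplicated gene ndhB, has several symbols and was left out by the rule.

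Photosystem II splits water and photosystem I reduces ferredoxin, and the cytochrome b6f complex carries electrons between them. The ATP synthase uses the resulting proton gradient, the NDH complex returns electrons from ferredoxin to the plastoquinone pool, and Rubisco fixes carbon dioxide. The chloroplast encodes the reaction centres and many small subunits of these complexes, while the antenna proteins, the small subunit of Rubisco and the remaining subunits come from nuclear genes. Many chloroplast genes are transcribed together as polycistronic units by a bacterial-type plastid polymerase, which needs nuclear sigma factors, and by a nuclear-encoded polymerase. Most chloroplast transcripts carry no stable poly(A) tail, and the primer used to make the labelled RNA is not given in the sources used here.

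RNA came from pooled whole seedlings grown on MSMO medium with sucrose, in short days and then, from dawn of day 4 after germination, in 3 cycles a day of 160 min light and 320 min dark. Wild-type Col (21 arrays), the CCA1OX line (21 arrays), which makes excess of the clock protein CCA1, and the double mutant pif4 pil5 (6 arrays), defective in the phytochrome-interacting factors PIF4 and PIL5, were hybridised to 48 Affymetrix ATH1 arrays. For both Col and CCA1OX there were 5 arrays at light 120, 6 at dark 280, 5 at light 1080 and 5 at dark 1240, where the number is the minute of the day. The pif4 pil5 arrays were all from dark 280. The labels call the seedlings growing in 3 groups (Col dark 280, CCA1OX dark 280 and CCA1OX dark 1240) and not growing in the other 6. The labels name no promoter for the CCA1OX transgene and no alleles for the double mutant, and CCA1, PIF4 and PIL5 have no name in the annotation used here, so no check of the genotypes was made. In whole seedlings, fewer green cells and less chloroplast RNA per cell cannot be told apart.

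Replicates were taken on days 4, 5 and 6 in 2 time courses. In Col and CCA1OX each time course was also hybridised as 1 array campaign of its own (24 arrays in each campaign, with all pif4 pil5 arrays in the second), so time course and campaign cannot be told apart. Array names divide the campaigns further into 5 batches, and most batches hold 1 or 2 of the days. Values are log2 expression after quantile normalization, and precision is limited by how many arrays a group has. The lowest correlation between arrays of a group was 0.945, and 0 pairs of arrays were identical. The light labels were checked with the mean of 3 light-responsive genes (HYH, AT3G52740 and AT3G44450): it was 3.44 to 5.85 on the other light arrays and 2.98 on Col light 1080 replicate 3, and 2.39 to 4.23 on the other dark arrays but 4.77 and 5.30 on Col dark 280 replicate 3 and CCA1OX dark 280 replicate 2. These 3 arrays go against their labels, and results that change without them are given both ways.

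The 43 genes were mostly well detected. The mean over 48 arrays lay above 4.7, the median of all probe sets, for 41 of them, with ndhF (mean 2.81) and petG (mean 4.59) below it. Within groups the members varied far more than other probe sets did. The median residual SD of the 43 members was 0.618 on the log2 scale, against 0.244 for all probe sets and 0.283 for probe sets above the median level. Photosystem I gene psaC, which encodes the iron-sulfur subunit that hands electrons to ferredoxin, had the largest residual SD (1.34), followed by ndhD (1.16). The smallest belonged to psbM (0.248) and ndhC (0.250).

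The heat map of all members by array shows where this spread lay. A further 3 arrays were taken as standing apart in these genes, after the data were seen. Col light 120 replicate 4 and Col dark 280 replicate 4, both from day 4 and the same array batch, had mean deviations of -0.99 and -0.86 over the 43 genes, the lowest of all arrays, while their rbcL values were 10.99 and 11.13, the highest of all arrays. CCA1OX light 1080 replicate 5 had the highest petD (8.12 against 4.22 to 6.15 on the other arrays of its group) and petN (8.76 against 5.13 to 6.44) and the lowest psaA and psaJ, and its 3' minus 5' difference for the actin control, a measure of RNA degradation, was 2.08, the highest of all arrays. Its mean deviation was -0.11. Large deviations on the high side were not part of this set of 3. They were 1.07 on Col light 1080 replicate 2, 0.96 on Col light 120 replicate 2 and 0.80 on CCA1OX light 120 replicate 3.

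**Figure D1:**
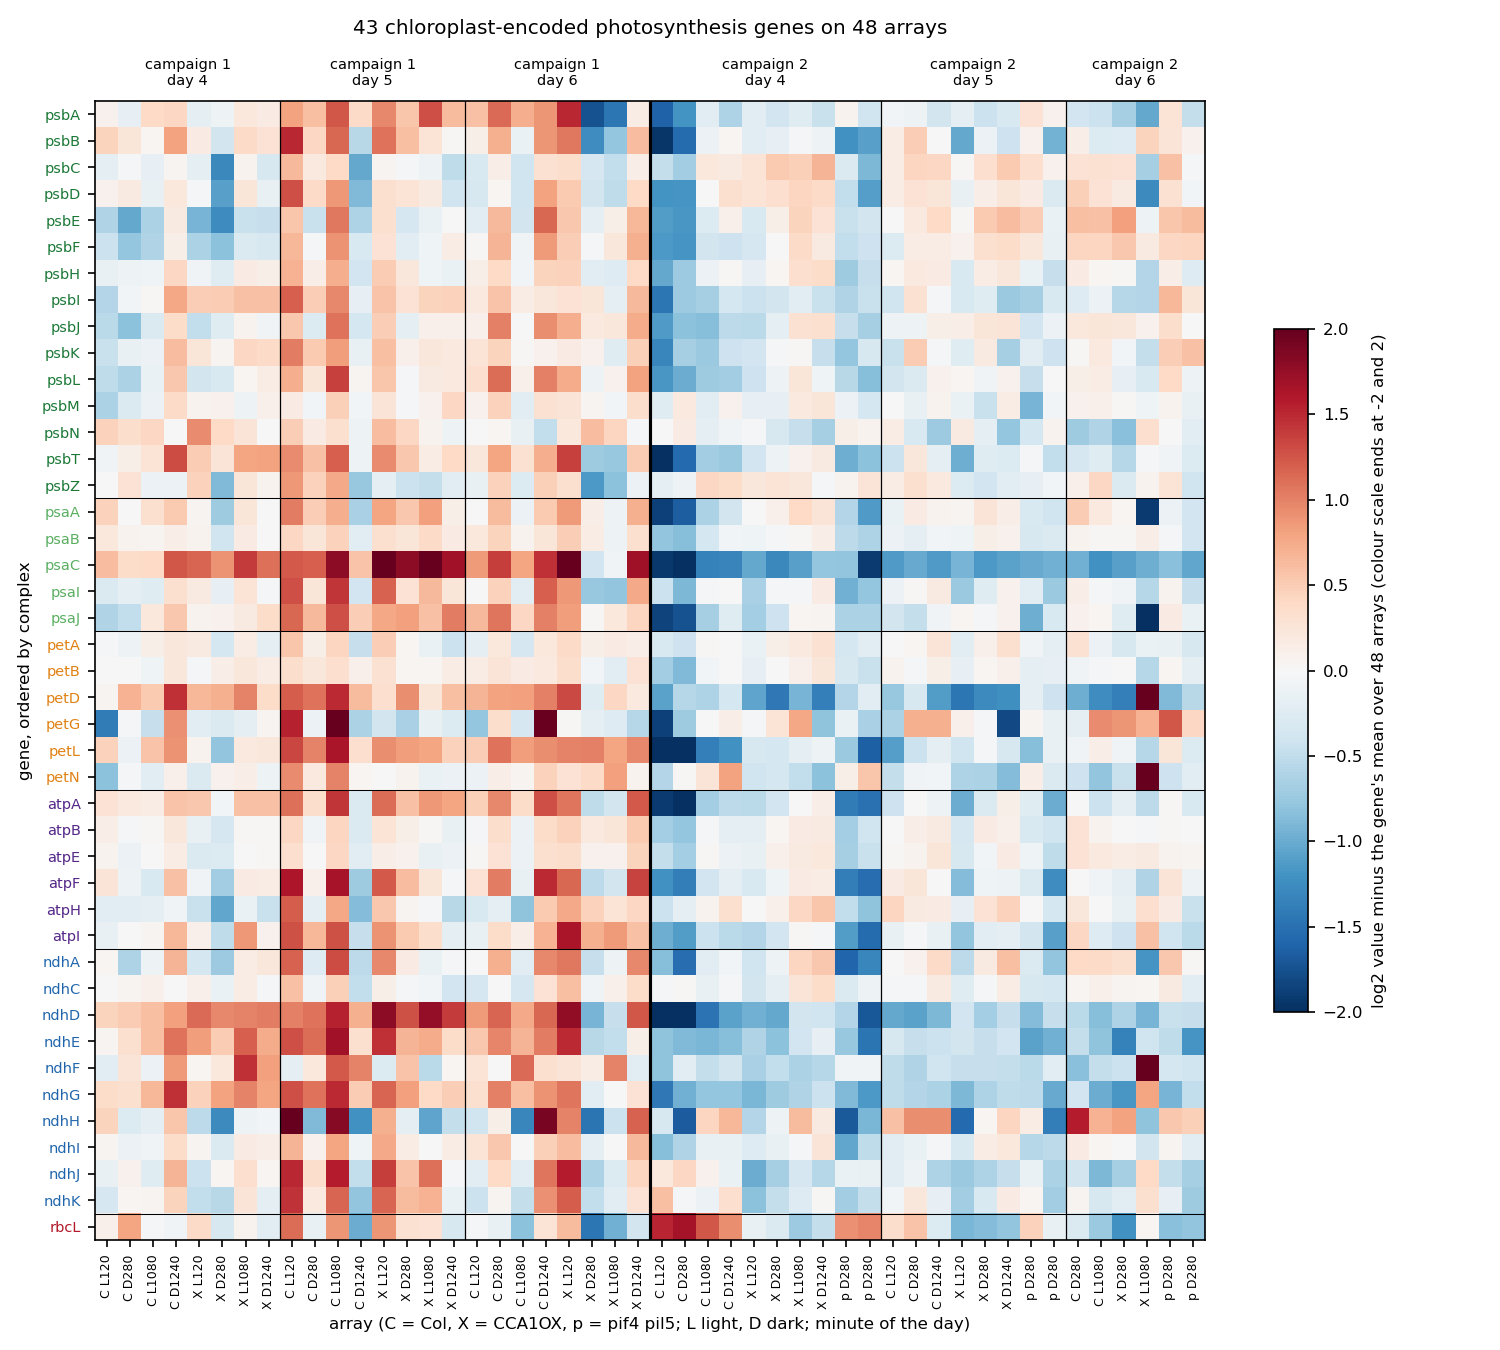
Log2 value of each of the 43 genes on each of the 48 arrays, minus the gene's mean over all arrays (colour), with genes ordered by complex and arrays ordered by campaign, day and group. Most rows are redder in campaign 1 and bluer in campaign 2, psaC and ndhD most of all, whereas rbcL is highest on several day 4 arrays of campaign 2.

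Across the 9 groups no member differed by the F test over all group means. The call rate was 0 of 43, where 19.2% of all probe sets were called (limma with Benjamini-Hochberg adjustment). An unadjusted p under 0.05 was reached by 0 members and by 7240 of all probe sets. The range between the highest and the lowest group mean had a median of 0.73 over the members and 0.40 over all probe sets. When the replicate number of the time course entered the fit as a block, ndhE (adjusted p = 0.0051), a membrane subunit of the NDH complex, and psbN (adjusted p = 0.0434), which acts in photosystem II assembly, were called, 2 of 43 where 24.7% of all probe sets were. In pif4 pil5 this number does not follow the campaign, since all its arrays are in the second. The block therefore does not adjust that group for the campaign, and ndhE differed between campaigns (-1.28). The smallest p of each complex belonged to psbZ, psaB, petG, atpI, ndhI and rbcL, whose values are given on every array below.

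For psbZ, a small subunit of photosystem II, Col light 120 read 10.21, 11.09, 10.07, 10.02 and 10.36, Col light 1080 read 10.10, 10.97, 9.95, 10.63 and 10.63, and Col dark 1240 read 10.10, 9.46, 10.69, 10.58 and 10.41, while Col dark 280 ran from 10.11 through a median of 10.52 to 10.68. In CCA1OX, light 120 read 10.68, 10.02, 10.54, 10.45 and 9.95, light 1080 read 10.46, 9.74, 9.40, 10.45 and 10.28, and dark 1240 read 10.29, 10.00, 10.10, 10.20 and 10.01, while dark 280 ran from 9.07 through 9.82 to 10.49. The 6 pif4 pil5 arrays ran from 9.82 through 10.22 to 10.49. CCA1OX dark 280 was the group with the lowest mean (9.74) and Col dark 280 the one with the highest (10.47), and their arrays overlapped in range.

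For psaB, a reaction centre protein of photosystem I, Col light 120 read 12.14, 12.34, 12.14, 11.14 and 11.82, Col light 1080 read 11.98, 12.39, 12.00, 11.58 and 11.96, Col dark 1240 read 12.06, 11.72, 12.17, 11.88 and 11.88, and Col dark 280 ran from 11.08 through a median of 12.01 to 12.38. CCA1OX light 120 read 12.01, 12.25, 12.42, 11.85 and 11.85, light 1080 read 12.09, 12.32, 11.83, 11.95 and 12.06, dark 1240 read 11.94, 12.10, 12.26, 12.07 and 12.02, and dark 280 ran from 11.53 through 12.01 to 12.17. In pif4 pil5 the values ran from 11.31 through 11.58 to 11.90, low for this gene but within the range of Col.

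For petG, a small subunit of the cytochrome b6f complex with a low signal, Col light 120 read 3.20, 6.13, 3.82, 2.72 and 3.96, Col light 1080 read 4.13, 6.72, 4.25, 4.60 and 5.54, Col dark 1240 read 5.51, 3.96, 6.57, 4.72 and 5.30, and Col dark 280 ran from 3.88 through a median of 4.51 to 5.30. CCA1OX light 120 read 4.38, 4.23, 4.61, 4.57 and 4.69, light 1080 read 4.40, 4.44, 4.34, 5.36 and 5.29, dark 1240 read 4.65, 4.32, 4.02, 3.79 and 2.79, and dark 280 ran from 3.95 through 4.48 to 5.48. In pif4 pil5 they ran from 3.94 through 4.55 to 5.84. Every group overlapped the others, and the Col arrays spanned the whole range of the 48 arrays.

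For atpI, subunit a of the membrane part of the ATP synthase, Col light 120 read 6.31, 7.73, 6.31, 5.49 and 6.32, Col light 1080 read 6.52, 7.73, 6.60, 6.04 and 6.20, Col dark 1240 read 7.13, 6.00, 7.16, 5.92 and 6.31, and Col dark 280 ran from 5.34 through a median of 6.64 to 7.12. CCA1OX light 120 read 6.56, 7.36, 8.09, 5.88 and 5.68, light 1080 read 7.33, 6.82, 7.31, 6.48 and 7.05, dark 1240 read 6.55, 6.29, 7.05, 6.43 and 6.26, and dark 280 ran from 5.96 through 6.16 to 7.17. The pif4 pil5 arrays ran from 4.93 through 5.65 to 6.10, the lowest mean of the 9 groups (5.62), overlapping the lowest arrays of Col.

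For ndhI, an iron-sulfur subunit of the NDH complex, Col light 120 read 11.83, 12.45, 12.04, 10.92 and 11.56, Col light 1080 read 11.70, 12.57, 11.77, 11.62 and 11.81, Col dark 1240 read 12.14, 11.69, 12.25, 11.63 and 11.75, and Col dark 280 ran from 11.17 through a median of 11.76 to 12.32. CCA1OX light 120 read 11.83, 12.53, 12.39, 11.52 and 11.47, light 1080 read 11.94, 11.78, 11.78, 11.75 and 11.41, dark 1240 read 11.90, 11.92, 12.43, 12.03 and 11.98, and dark 280 ran from 11.48 through 11.70 to 11.93. In pif4 pil5 they ran from 10.74 through 11.25 to 11.83, again the lowest mean (11.30) with an overlap.

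For rbcL, the catalytic large subunit of Rubisco, Col light 120 read 9.58, 10.59, 9.44, 10.99 and 9.83, Col light 1080 read 9.45, 10.36, 8.65, 10.71 and 8.73, Col dark 1240 read 9.40, 8.48, 9.75, 10.40 and 9.20, and Col dark 280 ran from 9.19 through a median of 9.69 to 11.13. CCA1OX light 120 read 9.86, 10.35, 10.10, 9.33 and 8.56, light 1080 read 9.54, 9.77, 8.51, 8.75 and 9.51, dark 1240 read 9.25, 9.15, 9.11, 9.00 and 8.68, and dark 280 ran from 8.03 through 8.88 to 9.78. The pif4 pil5 arrays ran from 8.63 through 9.63 to 10.45. The group means went from 8.83 in CCA1OX dark 280 to 10.09 in Col light 120, with overlap between all pairs of neighbours.

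**Figure D2:**
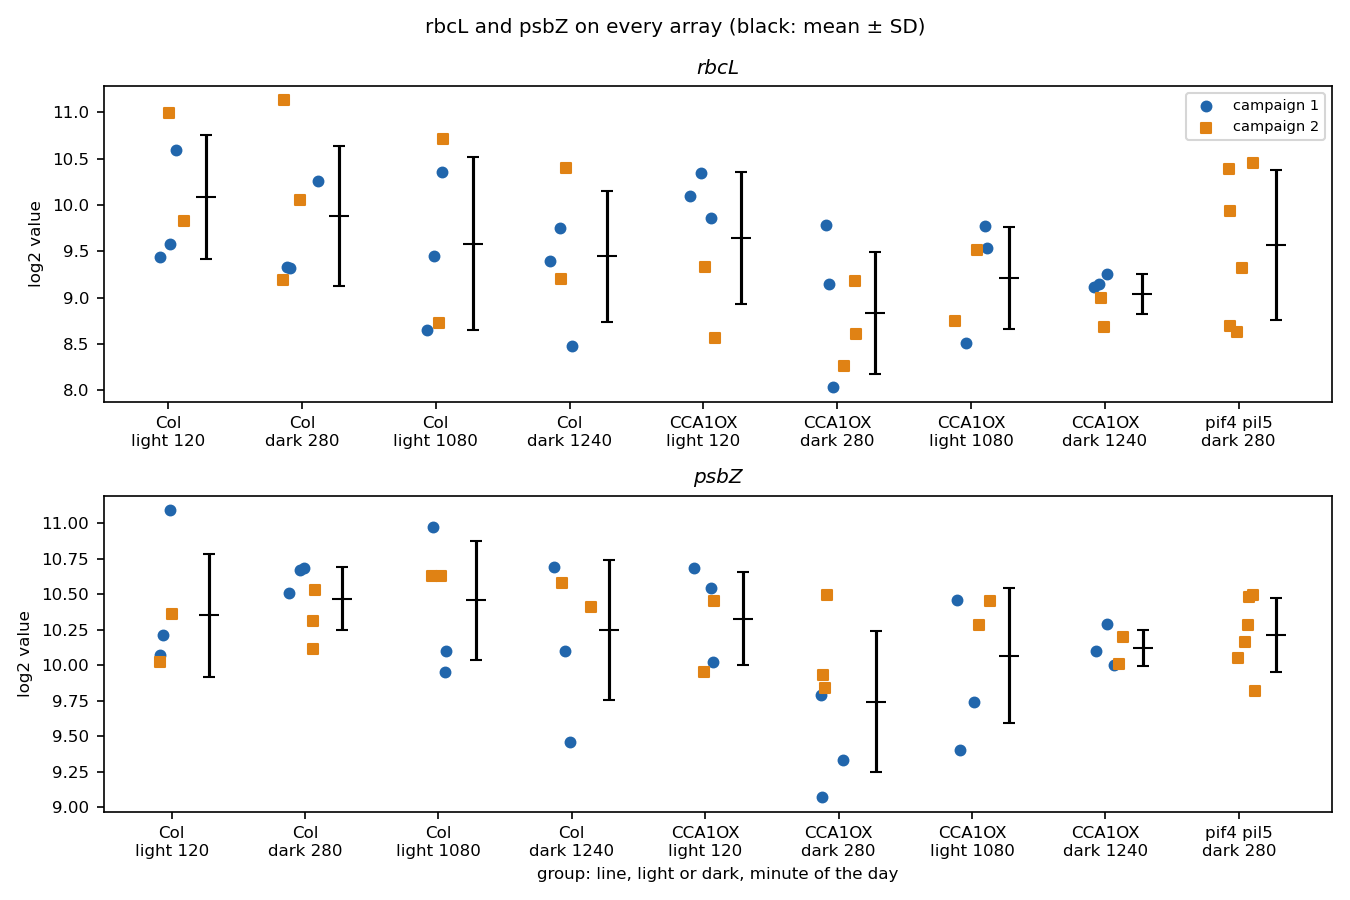
Log2 values of rbcL (top) and psbZ (bottom) on every array in the 9 groups, with the array campaign as colour and symbol and the mean ± SD in black beside each group. For rbcL the CCA1OX mean lies below the Col mean at each of the 4 times, and the arrays of the 2 lines overlap at each.

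No chloroplast-encoded gene passed the test between dark and light in either line. In Col the dark groups minus the light groups gave 0 called members (background 3.24%), a median difference of 0.00 and a range of -0.25 to 0.40 over the 43 genes, and 0 with an unadjusted p under 0.05 (3055 of all probe sets). The highest values were petG (0.40) and petN (0.19), both small subunits of cytochrome b6f, and the lowest were psbN (-0.25) and rbcL (-0.17). For 40 of the 43 genes the 95% interval stayed within 1 log2 unit on either side of 0, and the median half-width was 0.53 against 0.21 for all probe sets. The 3 light-responsive genes of the label check fell in the dark, with a median difference of -1.43 and all 3 called. They were chosen with earlier results of these data known and also served to check the labels, so their calls are not an independent test.

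CCA1OX gave 0 called members between dark and light (background 10.2%), a median of -0.05 and a range of -0.71 to 0.30. The highest values were psaJ (0.30), a small photosystem I subunit, and ndhH (0.22), and the lowest were petD (-0.71), subunit IV of cytochrome b6f, and petN (-0.50). Without CCA1OX light 1080 replicate 5 these were -0.02 for psaJ, -0.43 for petD and -0.20 for petN, and in the first campaign alone ndhH was -0.31. Only psbN had an unadjusted p under 0.05 (5122 of all probe sets did), with -0.41 ± 0.16 (SE) and an adjusted p of 0.1. Its values were 6.94, 6.61, 6.21, 5.97 and 6.17 at light 120, 6.25, 6.07, 6.43, 5.54 and 6.33 at light 1080, 6.00, 5.89, 5.97, 5.33 and 5.22 at dark 1240, and 5.16 through a median of 6.10 to 6.61 at dark 280, and the light and dark arrays overlapped. With the replicate number as a block psbN was called at -0.39 ± 0.125 (adjusted p = 0.0348 by limma, background 11.8%), and with the array batch as a block at -0.36 ± 0.111 (adjusted p = 0.0223, background 13.7%). In Col the same gene gave -0.25 (adjusted p = 0.581), and the interaction between lines gave -0.16 (adjusted p = 1). The gene psbN lies on the opposite strand of the psbB unit. For the other 42 genes the interaction, the dark minus light difference of CCA1OX minus that of Col, also gave no call (0 of 43 in all, background 0.0044%), with ndhH (0.33, but -0.04 with RNA quality covariates) and ndhA (0.29, but -0.04 in the first campaign alone) highest and petD (-0.82) and petG (-0.77) lowest.

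The time of day made no called difference. Col light 1080 minus light 120 gave 0 of 43 (background 0.0659%), with a median of 0.15, and the extremes were petG (1.08), petL (0.81), rbcL (-0.51) and psbN (-0.26). CCA1OX gave 0 of 43 in the same comparison (background 0%, with 655 of all probe sets and 2 members at an unadjusted p under 0.05 in limma), a median of -0.12, and extremes of ndhF (0.91), petN (0.90), psbA (-0.62) and psaJ (-0.59). Without CCA1OX light 1080 replicate 5, ndhF was 0.53, petN 0.29 and psaJ 0.04. The gene psbA encodes the rapidly turned over D1 protein of photosystem II. Without the 3 arrays that stood apart in these genes, the Col median was -0.06.

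Col seedlings were labelled growing at dark 280 and not growing at dark 1240, and no member passed the test between these times. Col dark 280 minus dark 1240 gave 0 of 43 calls (background 0.101%), a median of -0.16 and extremes of rbcL (0.43), psbN (0.23), petG (-0.62) and ndhH (-0.60). In CCA1OX, where both times were labelled growing, the difference gave 0 of 43 (background 0%, with 303 of all probe sets and 1 member at an unadjusted p under 0.05 in limma), a median of -0.21 and extremes of petG (0.69, but -0.10 in the first campaign alone), psbN (0.32), ndhD (-0.73) and psaC (-0.73). The difference between the lines in this change gave 0 of 43 (background 0%, with 381 of all probe sets and 1 member at an unadjusted p under 0.05), and its extremes were rbcL (0.64), psbZ (0.60, but -0.16 in the second campaign alone), petG (-1.30) and petN (-0.52). Intervals were wide here, and 29 of 43 reached past 1 log2 unit.

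Between CCA1OX and Col the largest difference was in rbcL, which read lower in CCA1OX without passing the test. Over the mean of the 4 times the median difference was 0.03, with a range of -0.57 to 0.39 and 0 of 43 called (background 10.9%). The highest values were ndhD (0.39) and psaC (0.38), and the lowest were rbcL (-0.57 ± 0.208 SE, adjusted p = 0.0713) and ndhH (-0.49). The smallest adjusted p belonged to psbZ (-0.32 ± 0.115, adjusted p = 0.0659). The 21 CCA1OX and the 21 Col arrays overlapped for both genes. Of the other 26 chloroplast-encoded genes, which are mostly ribosomal proteins, 5 were called lower and 0 higher in CCA1OX, among them rps16 (-1.09) and rpl22 (-0.94).

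The rbcL difference lay near the threshold and passed it under several settings. With the array batch as a block it was -0.57 ± 0.202 (adjusted p = 0.0463, 17.8% of all probe sets called), and without the 3 arrays that go against their light label it was -0.70 ± 0.208 (adjusted p = 0.0213, 13% called). In the second campaign alone it was -1.11 ± 0.349 (adjusted p = 0.037, 15.1% called), and in the first -0.17 (adjusted p = 0.86). Without the 3 arrays that stood apart in these genes, which include the 2 highest Col arrays, it was -0.46 ± 0.207 (adjusted p = 0.164). In that campaign Col ran from 8.73 through a median of 10.05 to 11.13 (9 arrays) and CCA1OX from 8.26 through 8.75 to 9.51 (9 arrays). In the first campaign Col ran from 8.48 through 9.45 to 10.59 (12 arrays) and CCA1OX from 8.03 through 9.39 to 10.35 (12 arrays), nearly the same. By day, Col had a mean of 10.24 ± 0.69 on day 4 (SD, n = 8) and 9.18 ± 0.42 on day 6 (n = 6), and CCA1OX 9.26 ± 0.34 (n = 8) and 8.92 ± 0.80 (n = 6). The lines were thus furthest apart on day 4, and whether their difference changed with the day was not tested.

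At dark 1240 alone, when CCA1OX was labelled growing and Col not, 0 of 43 members were called (background 0.62%). The highest differences were ndhD (0.42) and atpA (0.38), the alpha subunit of the ATP synthase, and the lowest petG (-1.30) and petN (-0.63).

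The pif4 pil5 seedlings read lower than Col for 39 of the 43 genes at dark 280, without a call. The median difference was -0.30, the range -1.10 to 0.32, and 0 of 43 were called (background 0.607%), where the median of all probe sets was 0.03. An unadjusted p under 0.05 in limma was reached by 3274 of all 22746 probe sets and by 4 of 43 members: atpI (-0.89), ndhE (-1.10), ndhI (-0.46) and psbM (-0.30). The extremes were psbE (0.32) and petG (0.13) against ndhE (-1.10) and ndhG (-0.91), and with the array batch as a block psbE turned to -0.19 and petG to -0.04. Of the complexes, photosystem I had the lowest median (-0.48), with all 5 genes below 0. NDH (-0.47, with 10 of 10 below 0) and the ATP synthase (-0.45, with all 6 below 0) lay close to it. Of the other 26 chloroplast-encoded genes 25 were below 0, with a median of -0.41, while the few nuclear genes named here (3 light-harvesting LHCB4 genes and 5 subunits) had medians of 0.27 and 0.22.

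The campaign moved with this comparison, since the pif4 pil5 arrays all belong to the second campaign and 3 of the 6 Col arrays to the first. For ndhE, Col dark 280 read 7.88, 8.68 and 8.54 in the first campaign and 6.68, 7.09 and 7.08 in the second, and pif4 pil5 read 6.80, 6.48, 7.05, 6.09, 6.59 and 6.37. The pif4 pil5 arrays lay below every first-campaign array of Col and overlapped those of the second. With the replicate number as a block ndhE was called (-1.10 ± 0.265, adjusted p = 0.024, 1.57% of all probe sets called), with the campaign as a block it was -0.45 (adjusted p = 0.471), and in the second campaign alone -0.39 (adjusted p = 0.577). The median over the members was -0.19 with the campaign as a block and -0.10 in the second campaign alone. On day 6 in the 1 array batch that holds both lines, the mean of 2 pif4 pil5 arrays minus the 1 Col array had a median of -0.07, with 15 of 43 above 0.

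For the reaction centre gene psaA of photosystem I, 1 Col array lay far below the others. Col dark 280 read 10.55, 11.05, 11.19, 8.90, 10.71 and 11.06 for psaA, and pif4 pil5 read 9.96, 10.25, 10.44, 9.42, 10.15 and 10.17. The first 3 Col values come from the first campaign and all pif4 pil5 values from the second. The value of 8.90 belongs to replicate 4 of Col. With this array alone left out psaA was -0.84 (adjusted p = 0.174) and psaB -0.50 (adjusted p = 0.0613), neither called. The 3 arrays that stood apart were picked by their values in these same genes, so calls made without them are not support for a difference. Without these 3 arrays psaA was called at -0.84 ± 0.243 (adjusted p = 0.0415) and psaB at -0.50 ± 0.132 (adjusted p = 0.029), 2 of 43 where 3.66% of all probe sets were called. In the second campaign alone which still holds replicate 4 of Col, they were -0.15 and -0.05 (adjusted p = 0.946 and 0.958).

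Against CCA1OX at dark 280, pif4 pil5 gave 0 of 43 calls (background 8.68%), a median of -0.22, and extremes of rbcL (0.73) and psbZ (0.47) against psaC (-0.89) and atpI (-0.79). This comparison shares the pif4 pil5 arrays with the one against Col. For psaC, CCA1OX dark 280 read 8.65, 9.54 and 7.37 in the first campaign and 6.47, 6.60 and 6.67 in the second, and pif4 pil5, all in the second, read 6.97, 6.75, 6.92, 5.84, 6.80 and 6.71. The direction of its difference turned to 0.08 in the second campaign alone and to 0.30 with the campaign as a block.

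**Figure D3:**
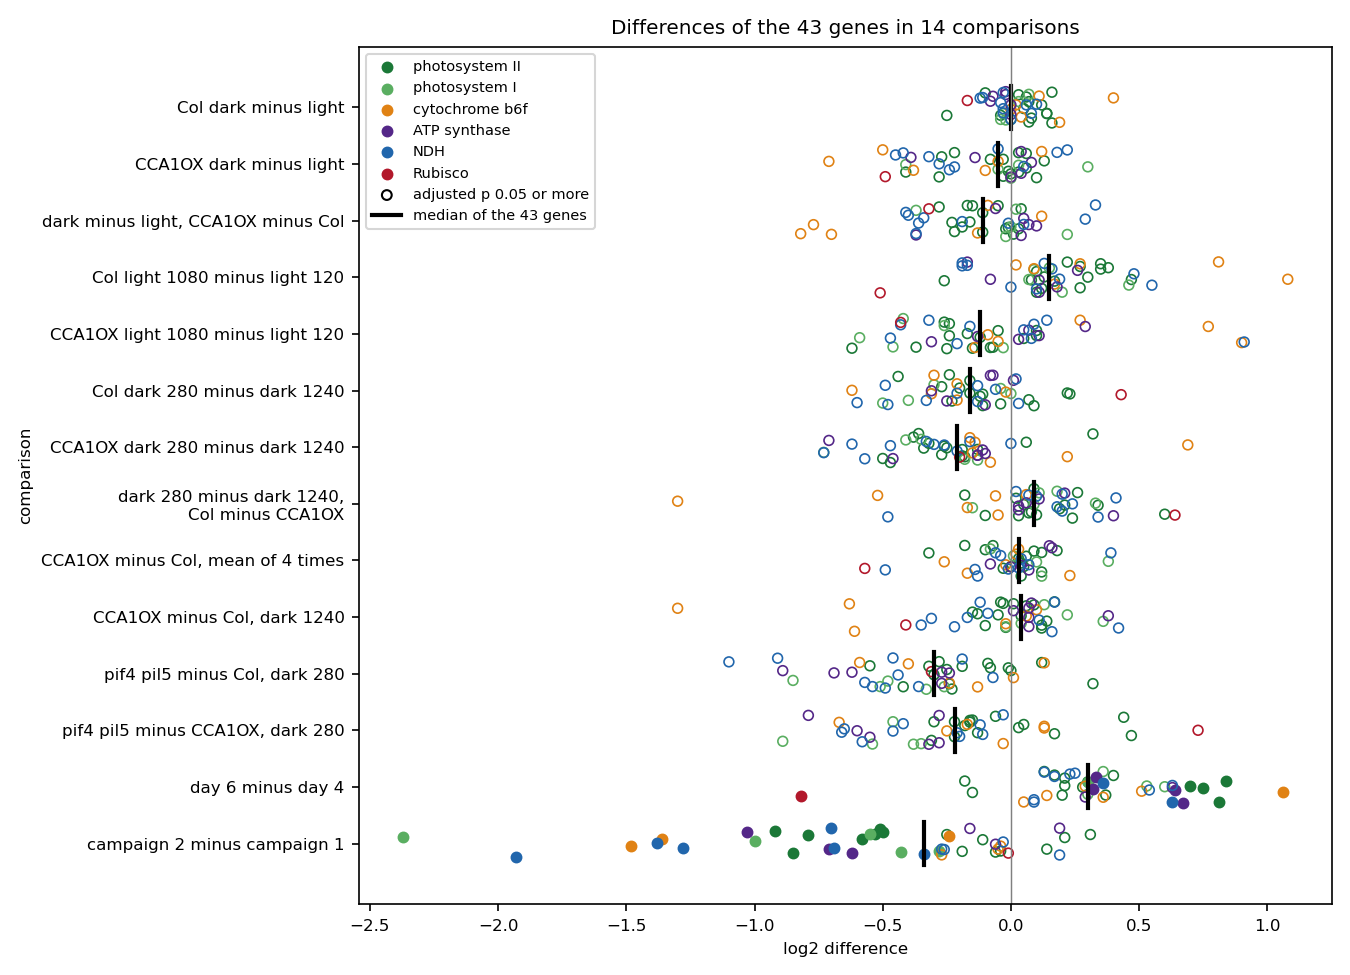
Log2 differences of the 43 genes (points, coloured by complex) in 14 comparisons, with filled points for adjusted p under 0.05 in limma and a black bar at the median. Filled points appear in the comparisons of days (13) and of campaigns (24) and in none of the 12 comparisons of line, light or time.

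Calls appeared when the arrays were compared by day, that is by seedling age. From day 4 to day 6, with the group in the fit, 12 of 43 genes rose (10.7% of all probe sets rose) and 1 fell (9.58% of all fell), so 13 were called against a background of 20.2%. The rise was broad: 40 of 43 differences were above 0, with a median of 0.30 against 0.00 for all probe sets. The ATP synthase had 4 of 6 called higher, photosystem II 4 of 15, NDH 2 of 10, cytochrome b6f 1 of 6 and photosystem I 1 of 5. Of the other 26 chloroplast-encoded genes 0 rose and 1 fell (rps16, -0.97), with a median of -0.08.

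The 4 photosystem II genes were psbE and psbF, the subunits of cytochrome b559, and psbL and psbJ, small subunits beside it, which together make up 1 transcription unit. For psbF the first campaign ran from 9.90 through a median of 10.20 to 10.83 on day 4 (8 arrays), from 10.41 through 10.77 to 11.61 on day 5 (8) and from 10.65 through 11.07 to 11.57 on day 6 (8). In the second campaign it ran from 9.53 through 10.33 to 11.10 on day 4 (10 arrays), from 10.45 through 10.86 to 11.08 on day 5 (8) and from 10.90 through 11.15 to 11.26 on day 6 (6). The medians rose with each day in both campaigns, with an overlap of day 4 and day 6. The fitted difference was 0.81 ± 0.126 (SE, adjusted p = 9.53e-06), or 1.75-fold.

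The other genes of the unit gave like values. For psbE, day 4 and day 6 ran from 8.50 through 9.13 to 9.93 and from 9.38 through 10.08 to 10.90 in the first campaign, and from 8.58 through 9.46 to 10.20 and from 9.65 through 10.34 to 10.57 in the second. The fitted differences were 0.84 ± 0.169 for psbE (adjusted p = 0.000356), 0.75 ± 0.134 for psbJ (adjusted p = 7e-05) and 0.70 ± 0.155 for psbL (adjusted p = 0.00111). All 4 genes of this unit were called, which was the case for 1 other unit, atpB and atpE (0.33 and 0.32).

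The largest rise was in petL, a small subunit of cytochrome b6f. It ran from 8.26 through 9.27 to 9.95 on day 4 and from 9.55 through 10.00 to 10.15 on day 6 in the first campaign, and from 5.62 through 8.08 to 8.96 and from 8.48 through 8.99 to 9.30 in the second. The lowest day 6 array lay above the day 4 median in both campaigns. The difference was 1.06 ± 0.305 (adjusted p = 0.0108), or 2.08-fold. The other members called higher were atpF (0.67) and atpI (0.64) of the ATP synthase membrane part, ndhA (0.63), ndhI (0.36) and psaB (0.30). These calls depended on the setting. That of atpF was lost in 15 fits with a single array left out and under 10 of 13 other settings. For ndhA this was 4 fits and 5 settings, and for atpI 1 fit and 4 settings. The call of ndhI was lost under 6 of the 13 settings and that of psaB under 4.

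Against this, rbcL fell. In the second campaign it ran from 8.75 through a median of 10.39 to 11.13 on day 4 (10 arrays) and from 8.26 through 8.71 to 9.51 on day 6 (6 arrays), and in the first from 9.15 through 9.50 to 10.26 and from 8.03 through 9.21 to 10.10 (8 arrays each). Day 4 and day 6 overlapped in both campaigns. The fitted difference was -0.82 ± 0.210 (adjusted p = 0.00407), with -0.45 in the first campaign alone (adjusted p = 0.309) and -1.31 in the second (adjusted p = 0.00235), and the remaining members below 0 were psbN (-0.18) and psbZ (-0.15). Of the 3 nuclear light-harvesting genes named here, LHCB4.3 was called lower (-1.36) and 2 were above 0. All 5 nuclear subunit genes were above 0, with a median of 0.19 and 1 called higher.

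**Figure D4:**
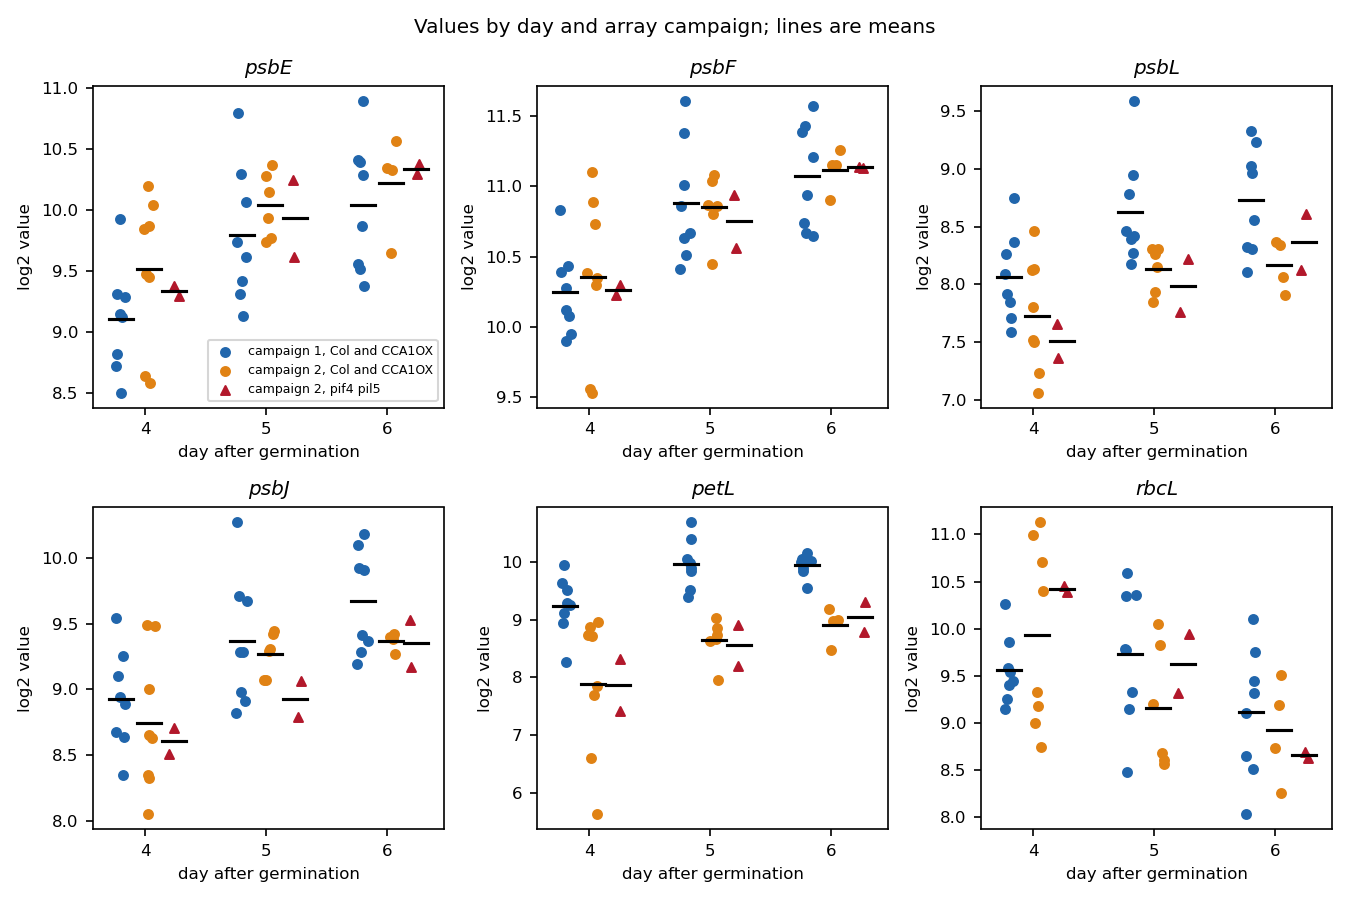
Log2 values of psbE, psbF, psbL, psbJ, petL and rbcL on days 4, 5 and 6, with 1 point for each array, colours for the campaigns, triangles for pif4 pil5 and black lines for means. The first 5 genes are higher on day 6 than on day 4 in both campaigns and in pif4 pil5, and rbcL is lower.

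Day and array batch overlap in Col and CCA1OX, whereas in pif4 pil5 2 arrays of each day belong to 1 batch. In pif4 pil5 alone, a fit added after the data were seen, 14 of 43 members rose (5.78% of all probe sets) and 1 fell (5.5% of all), 36 of 43 differences were above 0 and the median was 0.62 against -0.02 for all probe sets. For psbE the day 4 arrays read 9.30 and 9.38 and the day 6 arrays 10.30 and 10.38 (1.01 ± 0.203, adjusted p = 0.0152), and for rbcL they read 10.39 and 10.45 against 8.63 and 8.69 (-1.76 ± 0.202, adjusted p = 0.00138). Both genes were already called by day over all arrays, which include these, and each day has 2 arrays here. The largest rises were ndhH (1.80) and ndhA (1.72) of NDH, atpF (1.52) and atpA (1.31) of the ATP synthase and psbB (1.32), the CP47 antenna protein of photosystem II. The actin 3' minus 5' differences were 1.22 and 1.12 on day 4, 1.39 and 1.33 on day 5 and 1.09 and 1.04 on day 6, and their part in the result was not tested.

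Col and CCA1OX alone gave 8 members higher (9.66% of all probe sets) and 1 lower, with 40 of 43 above 0 and a median of 0.28. Whether pif4 pil5 differed from these lines in the change with age was not tested. With the array batch as a block over all 48 arrays, 1 member, rbcL, was called (-1.49 ± 0.373, adjusted p = 0.0278, 2% of all probe sets called). In that fit psbE (0.73), psbJ (0.70), psbF (0.65) and psbL (0.61) had adjusted p between 0.143 and 0.236. The difference of petL went from 1.06 to 0.69 (adjusted p = 0.401), below psbE and psbJ, that of ndhI from 0.36 to 0.22, that of atpI from 0.64 to 0.41 and that of psaB from 0.30 to 0.14. Within batch 2, which holds days 5 and 6 of the first campaign, day 6 minus day 5 gave 0 calls among the members and 0% over all probe sets (2 members and 1966 of all probe sets at an unadjusted p under 0.05, limma), with a member median of -0.06. Without the 3 arrays that stood apart in these genes, 12 members rose and 1 fell (19.7% of all probe sets called). With RNA quality covariates 18 rose and 1 fell (24.9% called). Without the 3 arrays that go against their light label atpF was not called (0.66, adjusted p = 0.0563 by limma).

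More members were called between the 2 campaigns than in any other comparison. With the group in the fit, 24 of 43 members were lower in the second campaign and 0 higher (14.9% of all probe sets were lower, 36.1% changed in either direction), with a median of -0.34 against 0.02 for all probe sets. Called lower were 5 of 5 genes of photosystem I, 6 of 10 of NDH, 3 of 6 of cytochrome b6f, 3 of 6 of the ATP synthase and 7 of 15 of photosystem II, and rbcL was not called (-0.01). Without the 3 arrays that stood apart in these genes 3 of 5 genes of photosystem I were called lower and 1 of 15 of photosystem II higher. The share over all probe sets is not given for that fit, so these counts are not read as a result about the members. In the same fit psaA went from -0.55 to -0.22 (adjusted p = 0.208). Of the other 26 chloroplast-encoded genes 4 were lower and 4 higher. Because each time course was 1 campaign in Col and CCA1OX, growth, RNA preparation and hybridisation cannot be told apart.

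The largest difference was in psaC, which in Col and CCA1OX ran from 7.37 through a median of 8.97 to 10.31 in the first campaign (24 arrays) and from 5.34 through 6.65 to 6.99 in the second (18 arrays). These ranges do not overlap for psaC, and how many of all probe sets separate in this way was not counted. The fitted difference was -2.37 ± 0.174 (adjusted p = 3.9e-13). It was followed by ndhD (-1.93), petD (-1.48), ndhG (-1.38), petL (-1.36) and ndhE (-1.28), and the other 18 called members lay between -1.03 and -0.24.

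Genes of 1 transcription unit did not share the difference evenly. In the unit that runs from ndhH to ndhD, which joins 6 NDH genes with psaC, the differences were 0.19 for ndhH, -0.26 for ndhA, -0.34 for ndhI, -1.38 for ndhG, -1.28 for ndhE, -2.37 for psaC and -1.93 for ndhD, so the last 4 genes lay below the first 3. In the psbB unit there was no such order, with -0.58 for psbB, -0.92 for psbT, -0.19 for psbH, -0.24 for petB and -1.48 for petD. The units psbD-psbC-psbZ and atpB-atpE held no called member.

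**Figure D5:**
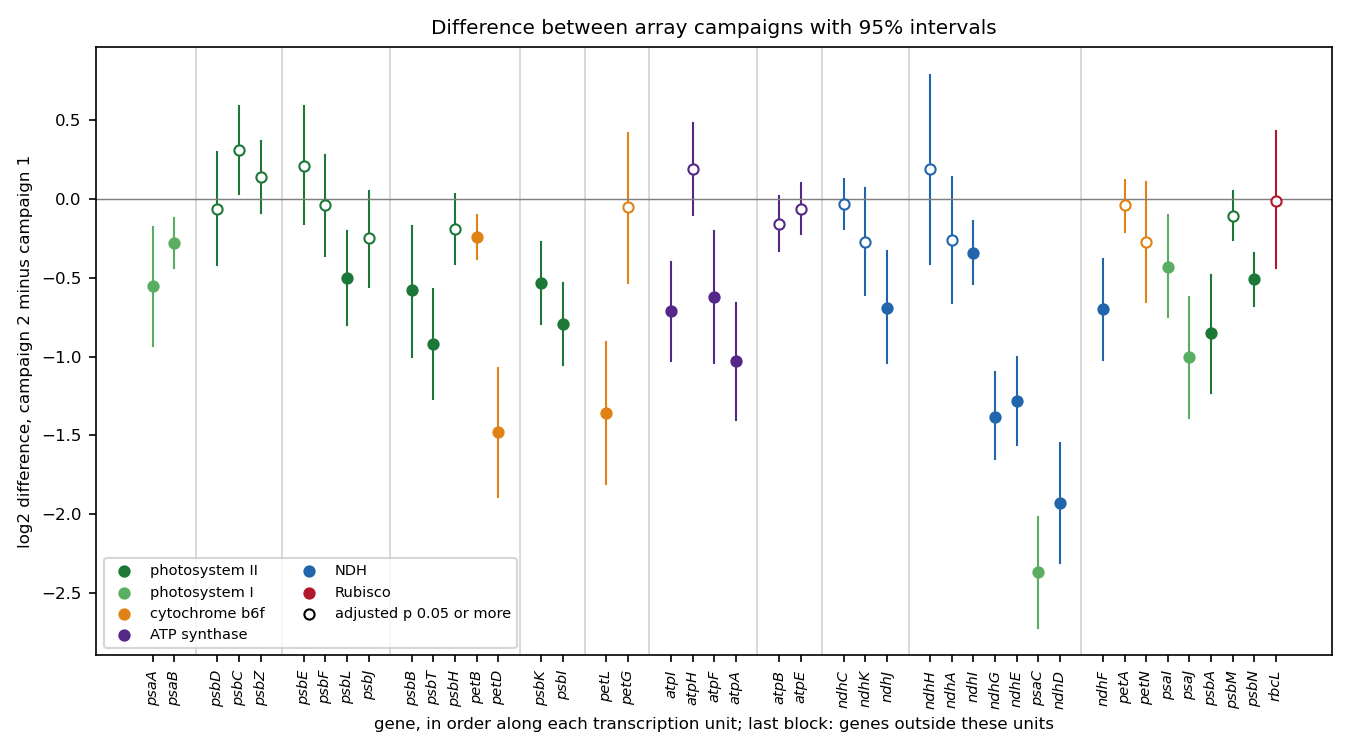
Log2 difference of each gene between the second and the first campaign with its 95% interval, in order along each transcription unit and then for genes outside these units. Filled points passed adjusted p 0.05 in limma, and psaC (-2.37) and ndhD (-1.93) lie lowest.

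Control probe sets moved with the campaign. The actin 3' minus 5' difference was 0.61 to 0.99 (median 0.89) in the first campaign and 0.92 to 2.08 (median 1.14) in the second, and that of GAPDH was -0.49 to -0.13 (median -0.38) and -0.29 to 0.18 (median -0.10). With both as covariates 14 members were called, all lower (15.2% of all probe sets called), among them psaC, ndhD, petD, petL and petN, and the tally of photosystem I was 2 of 5 (psaB and psaC). The part of RNA quality in the result was not otherwise tested.

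The members varied together from array to array. Over the 48 arrays the 903 pairs had a median Pearson correlation of 0.52, with 0.73 for the 53 pairs in 1 transcription unit and 0.49 for the 850 other pairs. The highest were ndhD with psaC (0.96), psbE with psbF (0.95), atpB with atpE (0.95) and psbK with psbI (0.93), all neighbours in a unit, and the lowest was psbE with psbN (-0.50). After group, array batch and day were fitted, the medians were 0.54 for all pairs, 0.69 within units and 0.53 between them. Pairs in 1 complex but different units had a median of 0.48 and pairs from different complexes 0.51 over the 48 arrays, and 0.57 and 0.52 after these terms were fitted. These are descriptions across arrays that share lines, days and batches. The first principal component held 56.5% of the variance of the members, with 42 of 43 loading in the same direction.

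The shares of variance follow from these comparisons. The group explained a median of 15.1% of a member's variance (23.8% over all probe sets), the campaign 22.4% (7.23%), the array batch 35.2% (19.4%) and the day 8.37% (5.62%). These terms overlap and differ in their number of levels, so their shares are not set against each other. The day share was highest for psbF (49.3%), psbJ (38.9%), psbE (36.5%) and psbL (30.6%), and the batch share for psaC (83.3%).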

How the data were processed

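Expression was measured in total RNA of pooled seedlings on ATH1 arrays. The deposited table holds log2 values made by the authors with RMA in affy, per the submitters' processing notes, with no version or genome build given in the sources used here. RMA corrects background, quantile-normalises arrays and summarises probes. Of 22810 probe sets, 64 controls were left out. Symbols came from GEO's platform annotation, loci from the TAIR10.1 reference tables. Of nuclear genes on the lists, 3 of 21 light-harvesting genes, 5 of 37 subunits and 0 of 10 plastid transcription genes had a name here. Transcription units follow textbook knowledge. Levels are not compared between probe sets.

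A linear model with the 9 group means was fitted to the 48 arrays (39 residual degrees of freedom) by limma, version 3.58.1 (R version 4.3.3), and moderated tests of contrasts were two-sided. Day and campaign were terms added to the group means. P was adjusted by Benjamini-Hochberg over 22746 probe sets, and adjusted p under 0.05 is a call. The script was tested on simulated data. The labels name days of a time course as replicates, and p-values therefore measure the spread between pooled samples of days and time courses. Title numbers 1 and 2 mark the time courses. Residuals correlated by 0.297 within a number and day, by 0.0781 within a number on other days, and by -0.158 between numbers. In pif4 pil5 and Col at dark 280 they were -0.0205 within and 0.0282 between numbers. Replicate numbers in the text name arrays within a group.

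Members, lists, tests and the naming rule were chosen with earlier results of these data known. The rule names called members, or else the 2 highest and 2 lowest differences, and gives the smallest p of each complex by array in the F test. Genes named outside the rule, among them psbN, psaA and those called under an alternative alone, were chosen after their values were seen. Alternatives were blocks for replicate number and array batch, each campaign alone, removal of arrays against their light label, median centring, repeated quantile normalization, RNA quality covariates, the compared groups alone, removal of dim probe sets and each array left out. Added after the data were seen were a campaign block, the batch block without the 3 arrays, removal of 3 arrays that stood apart in these genes, and the day and campaign fits on subsets.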

Additional observations from a re-analysis of the deposited data

Results flagged for a closer look

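Of 54 groups tested for an array far from the others (the 9 groups for each of the 6 genes given by array), 2 were flagged, and chance alone flags about 1 in 20. Both concern ndhI. Col light 1080 replicate 2 read 12.57, where the other arrays of the group ran from 11.62 to 11.81. CCA1OX dark 1240 replicate 3 read 12.43, where the others ran from 11.90 to 12.03.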

How the results depend on the processing

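The 12 comparisons of line, light or time and the F test gave 0 calls, and small counts appeared under some settings. Percentages here are the share of all probe sets called under the same setting. With the replicate block the count was 2 in the F test (24.7%) and 1 each in CCA1OX dark minus light (11.8%) and in pif4 pil5 minus Col (1.57%), and it changed no other call but that of atpF by day (0.58, adjusted p = 0.0533). With the array batch block it was 1 in the F test, in CCA1OX dark minus light (13.7%), in CCA1OX minus Col (17.8%) and by day (2%). The campaign block gave 1 in the F test and in CCA1OX dark minus light. CCA1OX minus Col gave 1 in the second campaign alone (15.1%), without the 3 arrays that go against their light label (13%), with RNA quality covariates (psbZ) and without the 3 arrays that stood apart in these genes (psbZ), and 2 without dim probe sets. The array batch block without the 3 arrays gave 2 in the F test, 1 in CCA1OX dark minus light, 2 in CCA1OX minus Col, 1 in pif4 pil5 minus CCA1OX and 1 by day. Without the arrays that stood apart in these genes the F test gave 1 (psaB), pif4 pil5 minus Col 2 (3.66%) and pif4 pil5 minus CCA1OX 1. Those arrays were picked by their values in these same genes, so calls made without them are not support for a difference. By day the first campaign alone gave 4 calls (petL, psbE, psbF and psbJ), and by campaign the RNA quality covariates gave 14 (15.2%). The cause of these moves was not tested. For the other settings, and for single arrays left out, the share over all probe sets is not given. Those counts are therefore not read as a result about the members. Leaving out single arrays gave 0 to 1 calls in the F test (1 without Col light 120 replicate 2), 0 to 1 in CCA1OX dark minus light (1 without CCA1OX light 1080 replicate 4), 0 to 2 in CCA1OX minus Col (2 without Col dark 1240 replicate 2), 10 to 16 by day and 23 to 26 by campaign, and 0 to 0 in the other 10 comparisons. No named difference changed sign while called. Under the filter on dim probe sets petG and ndhF drop out. The signals of ndhF and petG limit what can be said of them.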
